A study of Mus musculus with 9 samples.

Results

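The genes described here encode 9 secreted salivary proteins, listed as the major products of mucous acini: Muc19, Dcpp1, Dcpp2, Dcpp3, A2ml1, Bpifa2, Bpifb2, Mucl2 and Prol1. They were taken by name, in a list chosen with earlier results of these data known. All 9 were found among the 54532 genes of the count files. The samples were sublingual salivary glands of mice with the genotype WT, in 9 libraries: 3 from glands given no radiation (control), 3 from glands 7 days after 10 Gy (day 7) and 3 from glands 14 days after 10 Gy (day 14). RNA came from tissue sections of whole glands, so each library mixes all cell types of the gland. No source used here gives the animals' age or sex, or says that the numbered libraries of a group came from separate animals. The p-values thus reflect spread among libraries, part of which may be technical.

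The sublingual gland of the mouse is a mainly mucous gland. Its acini consist of mucous cells that store gel-forming mucin in granules, capped by crescents of serous cells called demilunes, and the granules are emptied into the ducts by regulated exocytosis when nerves stimulate the gland. Muc19 encodes the gel-forming mucin of these mucous cells. Dcpp1, Dcpp2 and Dcpp3 encode demilune cell and parotid proteins, small secreted proteins from a cluster of near-identical gene copies. A2ml1 encodes a large protease inhibitor of the alpha-2-macroglobulin family. Bpifa2, also called parotid secretory protein, and Bpifb2 belong to the BPI fold family of secreted lipid-binding proteins. Mucl2, also called Spt-1, and Prol1, also called Muc10, encode small mucin-like or proline-rich salivary proteins.

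Dcpp1, Dcpp2 and Dcpp3 lie side by side on the plus strand of chromosome 17 (GENCODE M21 on GRCm38, counted from 1), at 23880876 to 23882853, 23880880 to 23900788 and 23917458 to 23919441. The models of Dcpp1 and Dcpp2 share 30 exonic bases at the start of Dcpp1. Coding sequences of Dcpp1 and Dcpp2 were identical at 93.8% of 516 aligned positions. Those of Dcpp2 and Dcpp3 were identical at 95.3%, and those of Dcpp1 and Dcpp3 at 93.2%. The next 3 sequences show the same stretch of 150 coding bases in each copy, shown because these letters decide which copy a read is counted for: capitals mark the 29 positions at which the copies differ, and lower case the positions at which all 3 are the same. It covers coding bases 258 to 407 of Dcpp1 (chr17:23882536-23882685) and Dcpp2 (chr17:23900471-23900620) and coding bases 255 to 404 of Dcpp3 (chr17:23919124-23919273).
Dcpp1: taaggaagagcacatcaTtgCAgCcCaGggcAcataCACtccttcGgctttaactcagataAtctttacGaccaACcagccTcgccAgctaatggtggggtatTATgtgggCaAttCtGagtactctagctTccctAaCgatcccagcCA
Dcpp2: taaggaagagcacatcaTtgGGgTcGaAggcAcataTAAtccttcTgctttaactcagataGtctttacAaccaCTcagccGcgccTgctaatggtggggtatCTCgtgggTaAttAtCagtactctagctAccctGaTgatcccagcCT
Dcpp3: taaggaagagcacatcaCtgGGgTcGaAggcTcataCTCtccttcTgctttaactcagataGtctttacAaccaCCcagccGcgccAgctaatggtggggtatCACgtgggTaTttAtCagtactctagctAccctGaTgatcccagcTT

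Elsewhere the copies are alike over longer runs, the longest being 109 coding bases identical in all 3. Of all windows of 50 bases in the annotated transcripts, 46.5% of those of Dcpp1, 44.2% of those of Dcpp2 and 45.8% of those of Dcpp3 also occurred in another Dcpp copy. With windows of 100 bases these shares were 19.9%, 20.2% and 26.7%, and with windows of 150 bases 4.06%, 4.79% and 5.03%. No source used here states the read length or how reads matching several genes were treated, so counts of single Dcpp copies are uncertain. The sum over the 3 copies is not affected by reads moved from 1 copy to another and is given beside them, although reads that were discarded for matching several copies would be missing from the sum too. Other members had next to no windows in common with another gene: Muc19 shared 0.788% of its windows of 50 bases with Smgc, and 0% were shared by Bpifa2, Bpifb2 and Prol1. Muc19 is repetitive within itself, with 36.7% of the windows of its longest transcript occurring more than once there.

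The 3 Dcpp copies are nearly identical just before an annotated start as well, and these stretches are shown as a description of the letters. Fold changes of the copies had the same sign in each comparison below. Reads that match several copies may be counted for the wrong 1, and the part of the promoters was not tested. The starts used were 23880876 for Dcpp1, 23898722 for Dcpp2 and 23917458 for Dcpp3 (GRCm38.p6, plus strand). RefSeq gene models begin at 23880669, 23898722 and 23917419, so the stretches of Dcpp1 and Dcpp3 lie wholly or partly inside them. The 150 bases before the start used were identical at 97.4% of 152 aligned positions for Dcpp2 and Dcpp3, and at 91.6% of 155 for Dcpp1 and Dcpp2. Capitals mark the letters TATAA, which were searched on both strands and occurred 1 time in each, on the gene's strand, beginning 26, 31 and 29 bases before the start. The sequences cover chr17:23880726-23880875, chr17:23898572-23898721 and chr17:23917308-23917457.
Dcpp1 promoter: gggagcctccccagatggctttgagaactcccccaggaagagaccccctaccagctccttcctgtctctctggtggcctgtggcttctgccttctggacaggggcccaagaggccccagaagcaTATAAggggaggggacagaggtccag
Dcpp2 promoter: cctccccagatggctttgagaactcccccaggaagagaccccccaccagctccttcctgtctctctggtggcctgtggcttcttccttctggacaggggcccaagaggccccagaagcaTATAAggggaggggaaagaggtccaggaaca
Dcpp3 promoter: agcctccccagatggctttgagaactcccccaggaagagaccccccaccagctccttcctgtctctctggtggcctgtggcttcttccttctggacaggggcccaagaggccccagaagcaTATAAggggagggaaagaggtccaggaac

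A promoter stretch was available for 8 of the 9 members, all but Muc19. TATAA stood on the gene's strand in the 150 bases before the start in 5 of the 8, the 3 Dcpp genes, A2ml1 and Bpifa2, and in 9.99% of all 32851 promoters of the table (14.2% counting either strand). Such a match is a description of the letters only, and the 3 near-identical Dcpp stretches are not independent cases. Muc19 lies on chromosome 15 at 91838326 to 91934555, on the plus strand, with 9105 annotated exonic bases, and shares 95 of them with Smgc, the submandibular gland protein C gene of the same locus. A2ml1 (chromosome 6, 128539821 to 128581608, minus strand, 7753 exonic bases) shared no exonic bases with another gene. The same held for Bpifa2 (chromosome 2, 154008265 to 154016079, plus strand), Bpifb2 (chromosome 2, 153875045 to 153895270, plus strand), Mucl2 (chromosome 15, 103895855 to 103899312, minus strand) and Prol1 (chromosome 5, 88317312 to 88328814, plus strand). No member overlapped an exon on the opposite strand.

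Library totals ran from 15962399 to 19441239 counts. The count filter left 15348 genes, among them 8 members; Bpifb2 was removed. Across genes, which are not independent replicates, fold changes moved with exonic length. Spearman's rho was 0.423 for day 7 and 0.336 for day 14, each against control, and −0.283 between the irradiated groups; a length and GC correction took these to 0.0444, 0.0306 and −0.0207. Since Muc19 and A2ml1 are the longest members and the Dcpp genes the shortest, corrected values are given beside the others. Control library 3 and day 14 library 2 stood apart within their groups in Mucl2, Prol1 and several further salivary genes, as described at the end, and counts of members are given with and without them.

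The 9 members held a large part of what was sequenced in the gland. In controls the 9 members held 33.5%, 31.8% and 31.8% of all counts of libraries 1, 2 and 3. At day 7 they held 26.1%, 26.6% and 26.9%, and at day 14 27.0%, 29.2% and 28.2%. The groups did not overlap, and day 7 was the lowest of the 3. Group means were 32.3 ± 0.968% in controls, 26.5 ± 0.417% at day 7 and 28.1 ± 1.06% at day 14 (SD, n = 3). Each of the 3 pairwise differences had an exact two-sided permutation p of 0.1 (0.1 adjusted over the 3 comparisons), the smallest that 3 against 3 libraries allow.

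**Figure D1:**
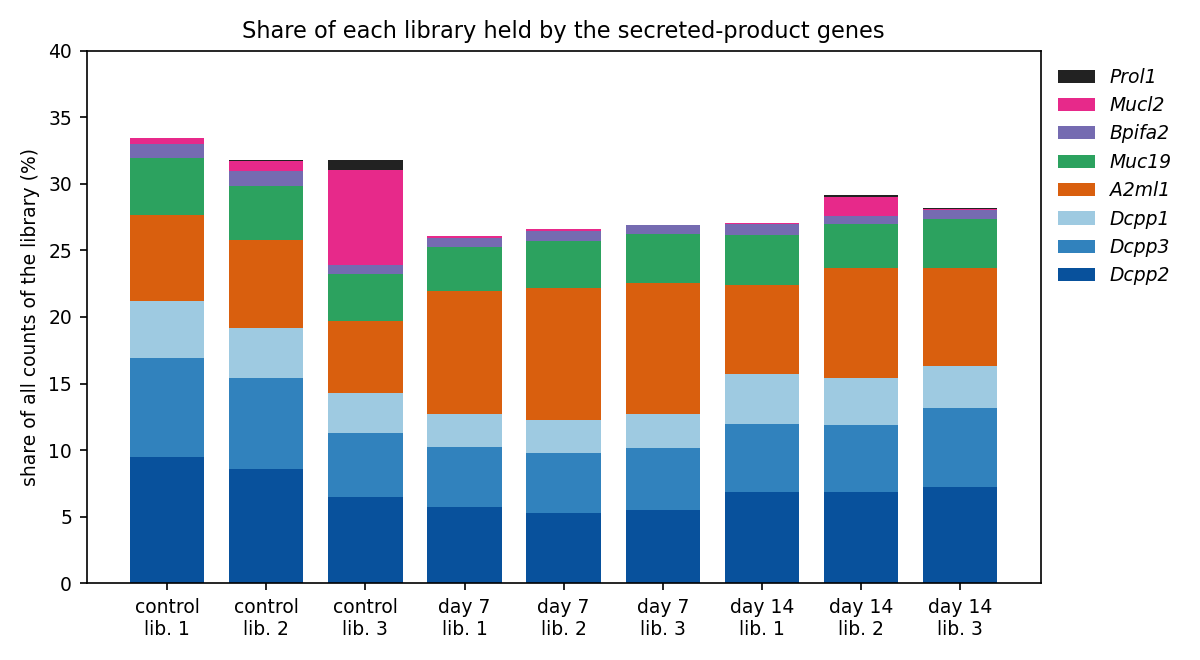
Stacked bars give the share of all counts of each library held by each gene, in percent, for the 3 control, 3 day 7 and 3 day 14 libraries; Bpifb2 is too low to be drawn. The whole bar is between 31.8% and 33.5% in controls and between 26.1% and 26.9% at day 7, and in control library 3 Mucl2 and Prol1 take the place of part of the Dcpp share.

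Part of this share was held by Mucl2 and Prol1. Without these genes among the members, control libraries 1, 2 and 3 were at 33.0%, 31.0% and 23.9%, day 7 libraries at 25.9%, 26.4% and 26.9%, and day 14 libraries at 27.0%, 27.6% and 28.0%. Control library 3 then lay below all the irradiated libraries, and the difference of day 7 from control had an exact two-sided permutation p of 0.4 (n = 3 a group). In that library Mucl2 alone held 7.12% of counts and was the most abundant gene of all.

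Abundance did not match the name of the set for every member. In each library Muc19, Dcpp1, Dcpp2, Dcpp3 and A2ml1 ranked among the 6 most abundant genes, and Bpifa2 ranked between 6 and 11. Mucl2 ranked between 1 and 4159, Prol1 between 9 and 11631, and Bpifb2 between 13734 and 19268. Bpifb2 had 3, 9 and 16 counts in controls, 2, 4 and 1 at day 7, and 1, 6 and 4 at day 14, where 3 counts corresponded to 0.154 to 0.188 counts per 1000000 counts of the TMM-scaled library (CPM). It was thus close to the limit of detection in every library and is not a major product in these samples. Among the cell type markers used here, Muc19 and Bpifb2 stand for mucous acini, and the 3 Dcpp genes and Bpifa2 for serous demilunes. Sections of whole gland do not show which cells a transcript came from, and fewer cells of a type cannot be told apart from less RNA per cell.

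The labelled gland was checked against markers. Of 8 mucous acinar markers, 7 or 8 had counts in every library, with Tff2, which encodes a trefoil peptide, at 0 to 2 counts. Aqp5, the water channel of salivary acini, was between 1080 and 1526 CPM. The 8 markers listed for parotid serous acini were uneven: 4 to 8 of them had counts in each library, Amy1 (amylase) had 34 to 105 counts and Prb1, a proline-rich protein gene, 0 to 1, while Pip had 4253 to 43465 and Bpifa2, a member that also stands in the demilune list, 115213 to 186987. Without Bpifa2 the list summed to 238 to 2463 CPM, highest in control library 3.

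Per kilobase of annotated exons, which is the scale for comparing genes, the Dcpp copies were the highest of the 9. In controls Dcpp2 stood at 120530 ± 23313 CPM per kb, Dcpp3 at 98041 ± 21879 and Dcpp1 at 64308 ± 11283 (SD, n = 3). Dcpp2 exceeded Dcpp3, and Dcpp3 exceeded Dcpp1, in all 9 libraries. Across the control libraries the ranges overlapped, with Dcpp2 from 94749 to 140129 and Dcpp3 from 73510 to 115539 CPM per kb. A2ml1 followed at 8615 ± 997 CPM per kb, then Bpifa2 at 5012 ± 1348 and Muc19 at 4699 ± 447, which did not differ beyond their spread on this scale. The lengths join the exons of all annotated transcripts, 7753 bases for A2ml1, 2009 for Bpifa2 and 9105 for Muc19. Their longest single transcripts held 4646, 929 and 9055 windows of 50 bases. Per length of the longest transcript, A2ml1 and Bpifa2 would thus stand higher against Muc19. A2ml1 was above Muc19 in 9 of 9 libraries. Of the windows of 50 bases in the longest transcript, 36.7% recur within Muc19 and 0% within A2ml1. Reads from such repeats, if discarded for matching several places, would be missing from Muc19, and this was not tested. Mucl2 at 28257 ± 38821 and Prol1 at 2741 ± 3860 CPM per kb had SDs larger than their means and no fixed place in the order, and Bpifb2 was last at 0.270 ± 0.173 CPM per kb.

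**Figure D2:**
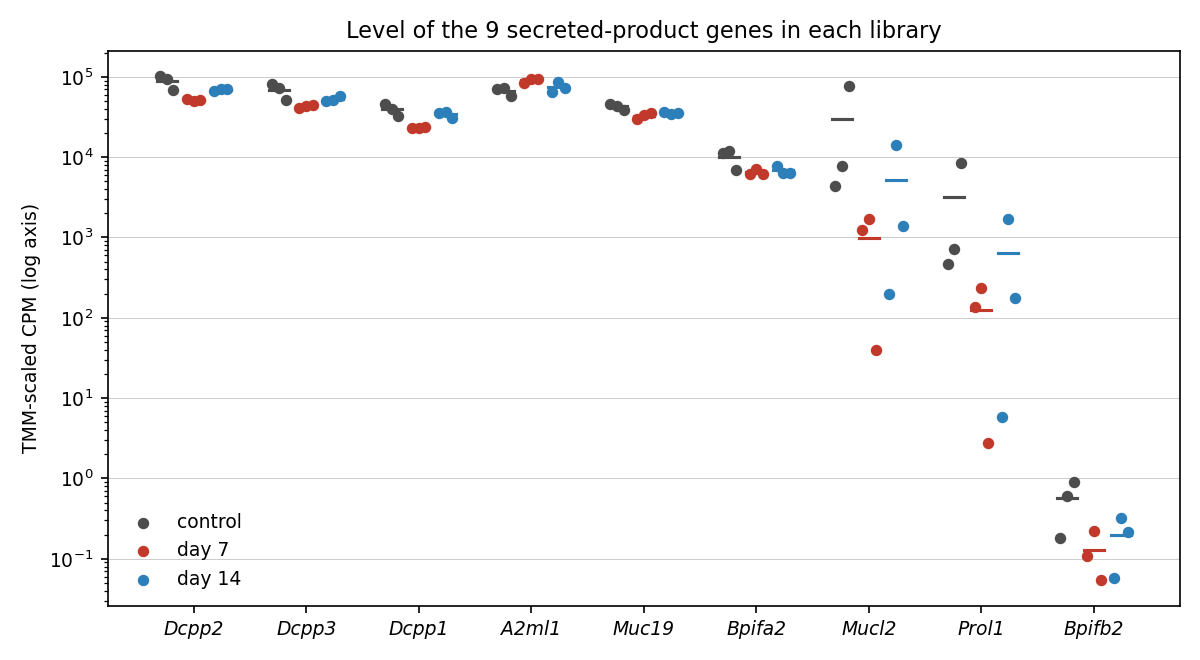
Points give the level of each of the 9 genes in each library as TMM-scaled CPM on a log axis (not per length), with 3 points a group for control, day 7 and day 14 and a bar at the group mean. The 3 Dcpp genes, A2ml1, Muc19 and Bpifa2 stay within a 2.07-fold range over the 9 libraries, while Mucl2 and Prol1 spread over a 1937-fold and a 3054-fold range.

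The comparison of day 7 with control asks how these secreted products stood in the gland a week after irradiation. Of the 8 members tested, 5 fell (Muc19, Dcpp1, Dcpp2, Dcpp3 and Bpifa2), 1 rose (A2ml1) and 2 did not pass (Mucl2 and Prol1). In the edgeR test across all genes 30.6% of genes passed at an adjusted p under 0.05, 15.8% higher and 14.8% lower. The median log2 fold change was −0.72 over the 8 members and 0.021 over all genes tested. For 7 of the 8 the libraries of the groups did not overlap, against 43.9% of all genes tested. Without control library 3 and day 14 library 2, 5 members fell and 1 rose as well. Summed marker levels of other cell types moved between these groups too, without overlap. The 8 fibroblast markers summed to between 376 and 404 CPM in controls and between 428 and 524 CPM at day 7, and the 7 endothelial markers to between 342 and 389 CPM and between 425 and 509 CPM. The 12 duct markers were lower at day 7 (1318 to 1498 CPM, controls 1537 to 1715 CPM), as were the 10 macrophage and leukocyte markers (80.6 to 114 CPM, controls 139 to 157 CPM). Their part in the members' changes was not tested.

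Among the demilune proteins, Dcpp2 had 102574, 92753 and 69356 CPM in control libraries 1, 2 and 3, and 52285, 49583 and 52103 CPM at day 7. Every day 7 library lay below every control, and control library 3 was the lowest control. The log2 fold change was −0.78 (SE 0.111, adjusted p = 7.69e-05), or 1.72-fold lower at day 7. Dcpp1 had 46494, 39961 and 32580 CPM in controls and 23222, 23305 and 23758 CPM at day 7 (log2 fold change −0.76, SE 0.110, adjusted p = 7.99e-05). Dcpp3 had 80762, 73446 and 51383 CPM in controls and 41279, 43354 and 44366 CPM at day 7 (log2 fold change −0.67, SE 0.128, adjusted p = 0.00111). Neither of these copies overlapped between the groups, and the day 7 libraries were closer to each other than the controls were, with coefficients of variation of 1.23% for Dcpp1, 2.94% for Dcpp2 and 3.66% for Dcpp3 at day 7 and of 17.5%, 19.3% and 22.3% in controls.

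Summed over the copies, the Dcpp level was 229830, 206160 and 153319 CPM in controls and 116786, 116242 and 120226 CPM at day 7. The sum fell by 0.74 on the log2 scale (SE 0.109, adjusted p = 0.000109), 1.67-fold, so the call did not depend on how reads were shared among copies. As a share of all counts it was 18.2 ± 3.54% in controls and 12.6 ± 0.253% at day 7 (SD, n = 3; exact two-sided permutation p = 0.1, the smallest possible). After the length and GC correction the sum still passed, at −0.50 (adjusted p = 0.0091), as did Dcpp1 at −0.53, Dcpp2 at −0.54 and Dcpp3 at −0.42 (adjusted p = 0.0411). With the replicate block added to that correction Dcpp3 did not pass (−0.41, adjusted p = 0.0931).

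Each copy's share of the Dcpp counts was similar from group to group. Dcpp2 made up 45.0 ± 0.305% of the sum in controls, 43.6 ± 1.08% at day 7 and 44.2 ± 0.581% at day 14. Dcpp3 made up 34.8 ± 1.11%, 36.5 ± 1.03% and 33.9 ± 2.12%, and Dcpp1 20.3 ± 0.934%, 19.9 ± 0.144% and 21.9 ± 2.22% (SD, n = 3). The groups overlapped for every copy in each comparison, with exact two-sided permutation p values of 0.2 to 0.7. The widest spread was that of Dcpp1 at day 14, with 23.5%, 22.7% and 19.3% of the sum in libraries 1, 2 and 3.

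Muc19, the gel-forming mucin, had 46253, 43791 and 38307 CPM in controls and 30293, 33312 and 35263 CPM at day 7. The day 7 libraries lay below all controls, by a smaller margin than for Dcpp. The log2 fold change was −0.38 (SE 0.092, adjusted p = 0.00479), 1.30-fold lower. For Muc19 the length and GC correction made the difference larger, at −0.58 (adjusted p = 0.00144). Smgc, which shares exonic bases with Muc19, had 960, 1462 and 1222 CPM in controls and 1076, 1305 and 1276 CPM at day 7 (log2 fold change 0.0054, SE 0.150, adjusted p = 0.985). The groups overlapped for Smgc. Its counts per 100 Muc19 counts were 2.08, 3.34 and 3.19 in controls and 3.55, 3.92 and 3.62 at day 7, without overlap (exact two-sided permutation p = 0.1, the smallest possible).

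A2ml1 was the 1 member that rose. It had 70786, 71713 and 57881 CPM in controls and 84706, 93589 and 92980 CPM at day 7, and the groups did not overlap. The log2 fold change was 0.44 (SE 0.106, adjusted p = 0.00429), 1.35-fold higher, and at day 7 it was the most abundant gene in 3 of 3 libraries. After the length and GC correction A2ml1 no longer passed (0.14, adjusted p = 0.496).

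Ratios within a library do not depend on how libraries are scaled. There were 0.308, 0.348 and 0.378 A2ml1 counts per Dcpp count in controls and 0.725, 0.805 and 0.773 at day 7. The ratio was 2.23 times higher at day 7, and day 14 lay between, at 0.430, 0.536 and 0.450. Against Muc19, A2ml1 had 1.53, 1.64 and 1.51 counts per Muc19 count in controls. The values were 2.80, 2.81 and 2.64 at day 7 and 1.79, 2.46 and 2.00 at day 14. Joined exons of these genes are similar in length (7753 bases for A2ml1 and 9105 for Muc19). Their longest transcripts are not, with 4646 and 9055 windows of 50 bases, and the ratio carries no length and GC correction. None of the groups overlapped in either ratio, and each pairwise difference had an exact two-sided permutation p of 0.1, the smallest that 3 against 3 allow. The ratio to Muc19 was 1.76 times higher at day 7 than in controls.

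**Figure D3:**
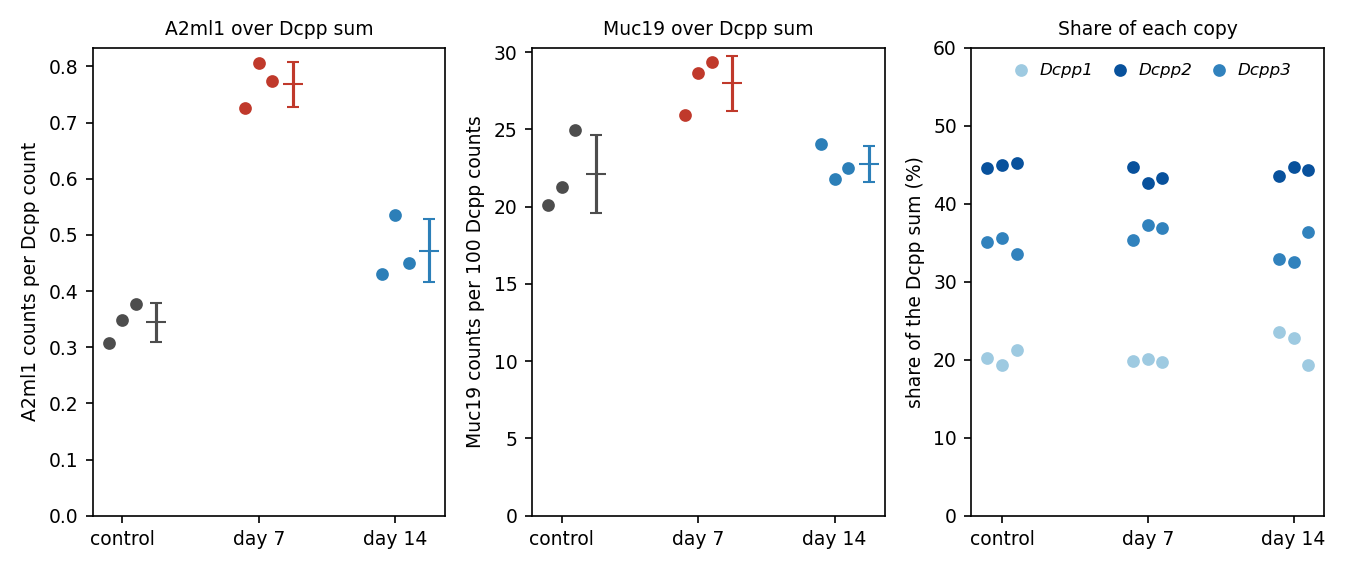
The left panel plots A2ml1 counts per Dcpp count and the middle panel Muc19 counts per 100 Dcpp counts, each point 1 library, with the mean and SD of 3 beside it; the right panel plots each Dcpp copy's share of the Dcpp sum in percent. A2ml1 per Dcpp count lies between 0.308 and 0.378 in controls, 0.725 and 0.805 at day 7 and 0.430 and 0.536 at day 14, while the shares of the copies overlap between groups.

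Bpifa2 had 11403, 11854 and 6953 CPM in controls and 6257, 7173 and 6191 CPM at day 7. Control libraries 1 and 2 were high and control library 3 lay among the day 7 libraries, so the groups overlapped. The log2 fold change was −0.62 (SE 0.175, adjusted p = 0.0195), 1.54-fold lower. The call was lost with any 1 of control library 1, control library 2, day 7 library 1 or day 7 library 3 left out (adjusted p = 0.0834, 0.0591, 0.0851 and 0.0644). Bpifa2 counts per 100 Dcpp counts overlapped between the groups, at 5.08 ± 0.616 in controls and 5.56 ± 0.540 at day 7 (SD, n = 3; exact two-sided permutation p = 0.4).

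The comparison of day 14 with control asks whether the products still differed 2 weeks after irradiation, and here no member passed the edgeR test, which called 1.76% of all genes, 1.13% higher and 0.632% lower. At an unadjusted p under 0.05 there were 4 members, Muc19, Dcpp2, Dcpp3 and Bpifa2, all lower. The share of all genes under that unadjusted threshold is not given here. DESeq2 called 4 members, and 1042 of 11768 genes. By limma-voom 3 members were called, and 1678 of 15348 genes. The median log2 fold change was −0.35 over the 8 members tested and 0.0114 over all genes tested. Only for Muc19, 1 of 8, did the groups not overlap, against 23.1% of all genes tested. With control library 3 left out 5 members passed, all lower, and with control library 3 and day 14 library 2 both left out 5 passed. The 1.76% belongs to the main fit, not to these. The share of all genes called without control library 3 is not given here, so that count of 5 is not read against a background. With a single library left out 13 to 1937 genes were called, against 270 with all libraries. The number without both libraries is given near the end.

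The Dcpp sum had 152035, 158958 and 159782 CPM in day 14 libraries 1, 2 and 3. These lay below control libraries 1 and 2 and around control library 3. The log2 fold change from control was −0.32 (SE 0.108, adjusted p = 0.101), and −0.51 (adjusted p = 0.000232) without control library 3. Single copies gave −0.21 for Dcpp1, −0.35 for Dcpp2 and −0.36 for Dcpp3 (adjusted p = 0.271, 0.0886 and 0.12).

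Muc19 had 36583, 34604 and 35921 CPM at day 14, below all 3 controls, with a log2 fold change of −0.26 (SE 0.092, adjusted p = 0.114). Without control library 3 the value was −0.37 (adjusted p = 0.00389). Bpifa2 had 7852, 6368 and 6269 CPM, with a log2 fold change of −0.56 (SE 0.175, adjusted p = 0.102), and −0.80 (adjusted p = 0.000298) without control library 3. A2ml1 had 65346, 85181 and 71935 CPM and overlapped the controls (log2 fold change 0.15, SE 0.105, adjusted p = 0.429; −0.04 after the length and GC correction). Smgc overlapped too, at 967, 1357 and 1073 CPM (log2 fold change −0.10, adjusted p = 0.745).

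The comparison of day 14 with day 7 asks what changed in the second week. Of 8 members tested 2 rose, Dcpp1 and Dcpp2, none fell and 6 did not pass, where 6.59% of all genes passed, 3.72% higher and 2.87% lower. The median log2 fold change was 0.37 over the members and 0.0013 over all genes tested. The libraries did not overlap for 3 of 8 members, the Dcpp copies, against 29.4% of all genes tested.

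Dcpp1 had 35728, 36122 and 30880 CPM at day 14, all above the day 7 libraries. The log2 fold change was 0.55 (SE 0.109, adjusted p = 0.00636), 1.46-fold higher. Dcpp2 had 66262, 71111 and 70765 CPM (0.43, SE 0.111, adjusted p = 0.0249) and Dcpp3 50044, 51724 and 58137 CPM (0.31, SE 0.128, adjusted p = 0.156). The sum rose by 0.41 on the log2 scale (SE 0.108, adjusted p = 0.0296), 1.33-fold. After the length and GC correction Dcpp1 was at 0.37 (adjusted p = 0.111), Dcpp2 at 0.26 and the sum at 0.24 (adjusted p = 0.325). Dcpp1 passed with each library left out in turn, while Dcpp2 and the sum lost their calls, with values of 0.41 to 0.47 and 0.39 to 0.44, without control library 2 or without any 1 of the day 7 and day 14 libraries. Muc19 (0.12), Bpifa2 (0.062) and A2ml1 (−0.29, adjusted p = 0.107) did not pass. A2ml1 passed without control library 3 (−0.30, adjusted p = 0.0219), and without control library 3 and day 14 library 2 (−0.41, adjusted p = 0.000686). Dcpp3 also passed without control library 3, at 0.30 (adjusted p = 0.00849).

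**Figure D4:**
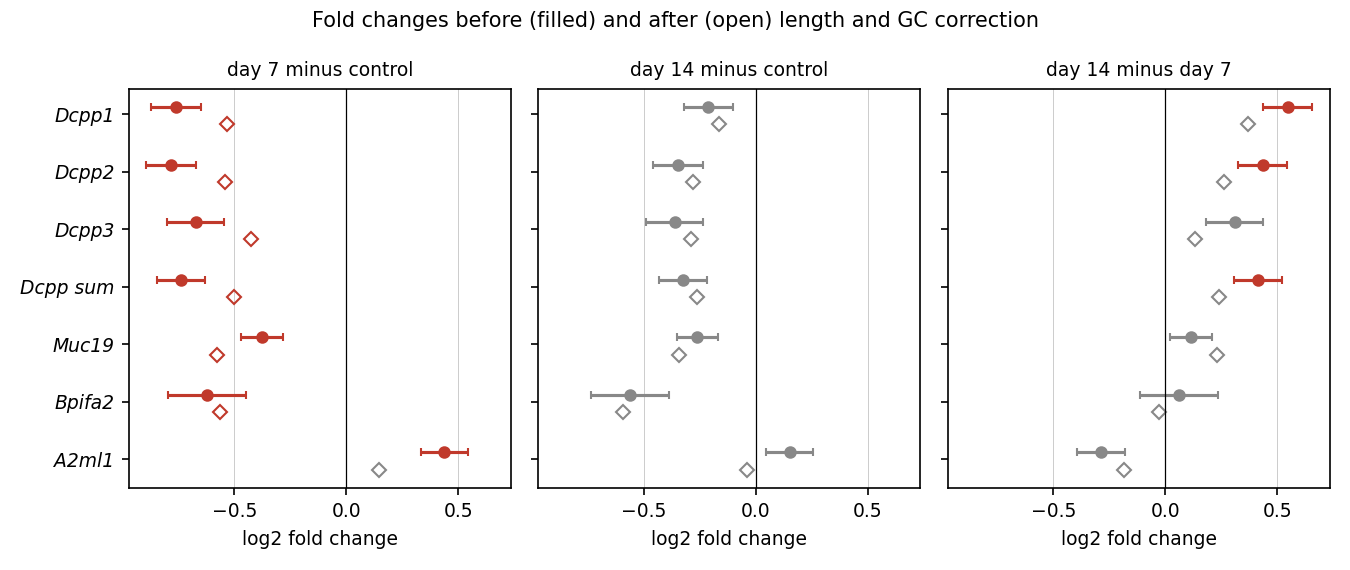
Each panel plots log2 fold changes for 1 comparison: filled points with bars of 1 SE are the edgeR values, open diamonds the values after the length and GC correction (drawn without error), red where the adjusted p is under 0.05 and grey otherwise. At day 7 against control the Dcpp genes, Muc19 and Bpifa2 lie left of 0 on both scales and A2ml1 right of 0, where its corrected value of 0.14 is grey; at day 14 against control all points are grey.

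Mucl2 and Prol1 differed widely between libraries of the same group. Mucl2 had 72558, 116238 and 1350724 counts in control libraries 1, 2 and 3, 22521, 30818 and 734 at day 7, and 3430, 267233 and 25469 at day 14. Prol1 had 7698, 10760 and 147957 counts in controls, 2487, 4265 and 51 at day 7, and 99, 32446 and 3260 at day 14. Both were highest in control library 3, next highest in day 14 library 2 and lowest in day 7 library 3. There were 7.23 to 14.4 Mucl2 counts per Prol1 count in 8 libraries and 34.6 in day 14 library 1.

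All day 7 libraries lay below all controls for both genes, but with SEs of 2.28 and 2.46 the log2 fold changes of −4.91 for Mucl2 and −4.68 for Prol1 did not pass in edgeR (adjusted p = 0.162 and 0.211). DESeq2 called both (adjusted p = 0.00536 and 0.0349). Without control library 3 the values were −2.66 and −2.29. At day 14 the libraries overlapped the controls, with log2 fold changes of −2.49 and −2.33 (adjusted p = 0.54 and 0.605), and without control library 3 the values were −0.25 and 0.057. At day 14 against day 7 they were 2.42 and 2.36 (adjusted p = 0.57 and 0.617), and −0.33 and −0.46 without day 14 library 2.

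Car6 and Pip were also highest in control library 3 and next in day 14 library 2, and the kallikreins did so in part. Car6, a carbonic anhydrase secreted by serous salivary cells, had 89277 counts in control library 3 and 938 to 19060 in the other 8, the next highest being day 14 library 2. Pip, a secreted prolactin-inducible protein gene, had 43465 counts there and 16029 in day 14 library 2, against 4253 to 11917 elsewhere. Of 14 Klk1 and Klk1b kallikreins, proteases of the granular ducts of the submandibular gland whose near-identical copies make single counts uncertain, 13 were highest of all libraries in control library 3, and in day 14 library 2, 9 were higher and 5 lower than the mean of the other day 14 libraries.

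The size of these differences varied by gene. Klk1b26 was 11.9 times higher in control library 3 than the mean of controls 1 and 2, Car6 8.15 times and Pip 4.01 times, against 14.0 times for Prol1. Klk1, the most abundant kallikrein, was 1.52 times higher there, and in day 14 library 2 it was at its lowest of all 9 libraries (1381 CPM, 0.770 times the mean of the other day 14 libraries). The summed level of the 20 markers of the submandibular gland, with Prol1 left out, was 6154 CPM in control library 3 and 2783 to 4782 in the other libraries, with day 14 library 2, at 3121 CPM, between the other day 14 libraries. Of these markers Smr3a and Ren1 had at most 23 and 4 counts in any library, and Smgc was 1.01 times the mean of the other controls. In the same library the 3 Dcpp genes were at 0.666 to 0.754 times, Bpifa2 at 0.598 times and Muc19 at 0.851 times the mean of controls 1 and 2. The part of submandibular or parotid tissue in these levels was not tested.

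**Figure D5:**
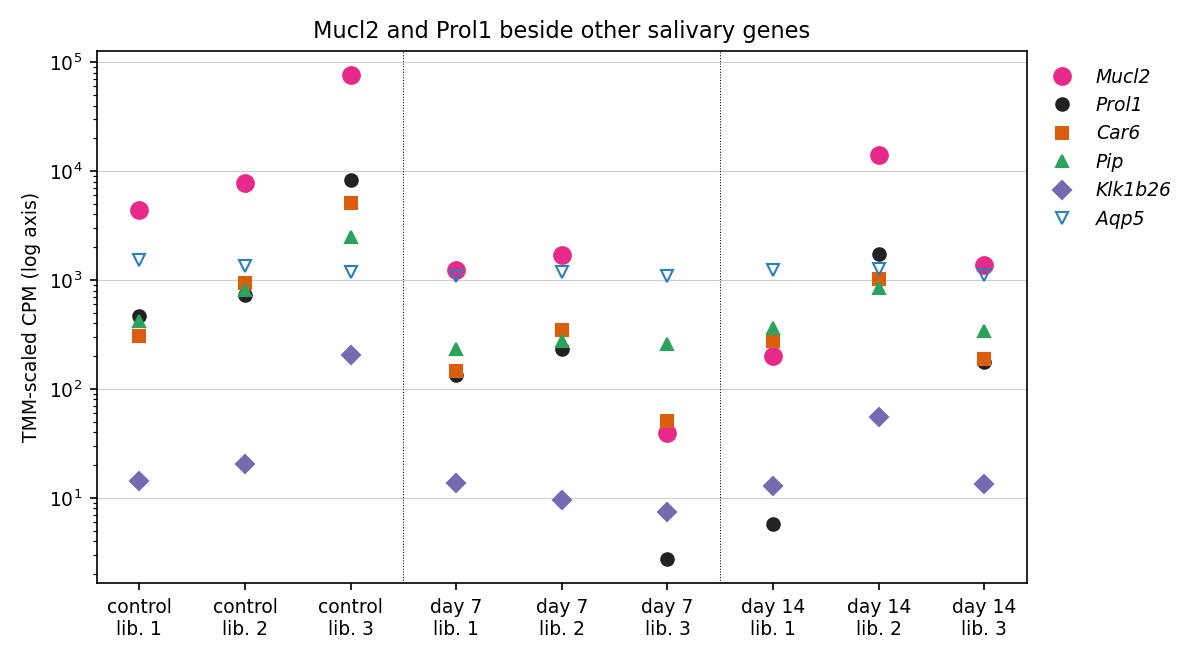
Levels of Mucl2, Prol1, Car6, Pip, Klk1b26 and Aqp5 in each of the 9 libraries as TMM-scaled CPM on a log axis, 1 point a library. All but Aqp5 are highest in control library 3 and next highest in day 14 library 2, and Aqp5 stays between 1080 and 1526 CPM.

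Among 24 tested genes for other salivary secreted products, 7 fell, 2 rose and 15 did not pass at day 7 against control, where 14.8% of all genes were called lower and 15.8% higher. The median log2 fold change was −0.61, and 0.021 over all genes tested. Cst3, which encodes the protease inhibitor cystatin C, fell from 109.6 ± 12.6 to 65.1 ± 3.29 CPM (log2 fold change −0.75, SE 0.104, adjusted p = 5.91e-05). Cst10, a further cystatin gene, fell by 1.32 on the log2 scale and Wfdc2, a whey acidic protein family member, by 0.70. Pigr, the receptor that carries immunoglobulin A into saliva, fell by 0.48. The 2 that rose were Fcgbp (0.52), a mucus-associated protein gene, and Bpifb4, which had a mean of 0.689 CPM at day 7 and, in controls, a mean under the level of 3 counts. Both are named after their values were seen. Of the BPI fold family outside the members, 3 genes were tested and 1 rose, again Bpifb4; its call was lost without control library 2 or 3 or any 1 day 7 library. Between day 7 and day 14, 4 of the 24 rose (Cst3 by 0.66, Pigr by 0.60, Lyz2 by 1.45 and, named after its values were seen, Lyz1 by 2.85) and Fcgbp fell by 0.53. The call of Lyz2 was lost without day 14 library 2 and with only the 6 libraries compared. That of Fcgbp was lost without day 7 library 2 or day 14 library 1 and with the length and GC correction (−0.41, adjusted p = 0.0619), as was its call at day 7 against control (0.34, adjusted p = 0.0612). Lyz2, a lysozyme gene, is also active in macrophages. Of 7 tested macrophage and leukocyte markers 5 rose from day 7 to day 14. In that comparison 3.72% of all genes were called higher and 2.87% lower, which is also the background for the 24 genes. The summed level of the 10 listed markers was 80.6 to 114 CPM at day 7 and 175 to 210.03 CPM at day 14. Their part in the change of Lyz2 was not tested. At day 14 against control Wfdc2 (−0.71) and Cst10 (−1.22) were the 2 that fell and none rose. Over all genes 0.632% were called lower there and 1.13% higher. Both calls were lost without control library 2 or day 14 library 2, that of Cst10 also without control library 1 or day 14 library 3.

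Of 35 tested genes of the mucous programme and mucin assembly 7 rose, 5 fell and 23 did not pass at day 7 against control, with a median log2 fold change of −0.016. That share of calls is near the 30.6% of all genes called, so the count is not a result about these genes. Galnt7, a glycosyltransferase that starts or extends O-glycans on mucins, rose from 252 ± 42.0 to 560 ± 23.8 CPM (log2 fold change 1.15, SE 0.122, adjusted p = 1.17e-05). Foxa1, a transcription factor of secretory epithelia, rose by 0.67 on the log2 scale. Slc35a3, a Golgi carrier of UDP-N-acetylglucosamine, rose by 0.72, and by 0.16 (adjusted p = 0.239) after the length and GC correction. Spdef, which directs the mucous cell programme, went from 764 ± 145 to 497 ± 28.3 CPM (log2 fold change −0.62, SE 0.117, adjusted p = 0.000768). Without control library 3 the list had 6 higher and 8 lower. At day 14 against control 3 genes rose, Galnt7 (0.68), Slc35a3 (0.53) and Galnt6 (0.68, a further glycosyltransferase), and none fell. Over all genes 1.13% were called higher there and 0.632% lower. None of the 3 passed without control library 1, control library 2 or day 14 library 2. With the length and GC correction Galnt7 alone passed, Slc35a3 being at 0.11 (adjusted p = 0.613) and Galnt6 at 0.76 (adjusted p = 0.0705). The call of Galnt6 was also lost by limma-voom, with the replicate block, and without any 1 library other than day 14 library 1. Leaving out day 7 library 2, day 14 library 1 or day 14 library 3 ended the call of Slc35a3 as well. From day 7 to day 14 Spdef rose by 0.46 and Galnt7 fell by 0.47, and both calls were lost without day 7 library 1 or 2 or day 14 library 1. The call of Spdef was also lost without day 14 library 2, and that of Galnt7 without day 7 library 3 or day 14 library 3.

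Of 31 tested genes of regulated exocytosis 4 rose, 6 fell and 21 did not pass at day 7, with a median log2 fold change of 0.0141. Here too the share of calls is near the 30.6% of all genes called and is not a result about these genes, and with the length and GC correction 2 rose and 5 fell, with a median of −0.16. Ano1, the chloride channel that drives fluid secretion, rose by 0.78 (SE 0.103, adjusted p = 4.11e-05), and Myo5c, a myosin of secretory granules, by 0.78 (SE 0.105, adjusted p = 4.88e-05). Vamp8, the vesicle fusion protein of exocrine granules, fell by 0.67 (SE 0.099, adjusted p = 9.66e-05) and Napa, a cofactor that recycles fusion complexes, by 0.36. The counts that rose and fell were 3 and 3 without control library 1 or day 7 library 2, 2 and 3 without day 7 library 1, 2 and 5 without control library 2 or day 7 library 3, and 5 and 7 without control library 3. At day 14 Myo5c was 0.54 above control and Ano1 0.49 below day 7, the 1 call in each of these comparisons. Over all genes 1.76% and 6.59% were called there. Leaving out control library 1, control library 2, day 14 library 2 or day 14 library 3 ended the call of Myo5c, and leaving out day 14 library 1 that of Ano1. Without control library 3, 3 rose and 3 fell at day 14 against control, a fit whose share of all genes called is not given here.

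None of the 4 tested protease inhibitors and complement proteins related to A2ml1 passed at day 7 in edgeR. C3 was at 0.44 (SE 0.509), Mug1 at 0.32 and C4b at −0.04. The complement gene C4b rose by 1.04 from day 7 to day 14 (SE 0.253, adjusted p = 0.0246), a call lost without any 1 of day 7 libraries 2 or 3 and day 14 libraries 2 or 3. It did not pass against control (1.00, adjusted p = 0.0583).

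The genes with the most similar pattern over the 9 libraries were found among 10138 candidates by the root mean square difference in log2 CPM after removing each gene's mean, as a description with no test. For Muc19 they were Snap47 (0.0368), Aldoa (0.041) and Afg3l1 (0.0458), a SNARE-family gene, a glycolytic aldolase and a mitochondrial protease, where the median candidate was at 0.254. For A2ml1 they were Ap3b1 (0.0645), Copa (0.0699) and Acss2 (0.0814), the first pair encoding coat proteins of vesicle transport and the last an acetyl-CoA synthetase. For the Dcpp sum they were Pglyrp1 (0.0669), a secreted peptidoglycan recognition protein, Rpl35a (0.069), a ribosomal protein, and Ndufb3 (0.0691), a subunit of respiratory complex I. The part of the length trend in these likenesses was not tested.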

How the data were processed

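The deposited values were raw counts of reads per gene, 1 file a library, identified by Ensembl gene IDs. STAR, featureCounts and DESeq2 with the mm10 build are named per the submitters' processing notes, without versions; strand and multi-mapping settings were not stated. IDs were matched to GENCODE M21 on GRCm38 (54495 of 54532 matched).

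Tests across genes used edgeR 4.0.16 under R 4.3.3, with filterByExpr (15348 genes kept), TMM scaling, 1 fit over the 3 groups with 6 residual degrees of freedom, quasi-likelihood F tests, and Benjamini-Hochberg adjusted p-values over all genes tested, called at 0.05. The standard error (SE) is the log2 fold change divided by the root of F. CPM are TMM-scaled. The Dcpp sum was tested in place of its copies. The length and GC correction used spline offsets with 5 degrees of freedom each. Ratios and shares were compared by exact permutation tests in Python 3.11.15 with SciPy 1.17.1; sequences were aligned with Biopython 1.88. The procedure was tested on simulated counts.

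The members and gene lists were chosen with earlier results of these data known. Named besides the members were up to 4 genes of each list per comparison with the smallest p and a mean of at least 5 CPM, Smgc, and the 3 genes nearest in pattern. Alternatives were other scalings and filters, DESeq2 1.42.0, limma-voom (limma 3.58.1), an adjusted p of 0.01, the length and GC correction, the replicate block, only the 6 libraries compared, and each library left out. Leaving out control library 3 with day 14 library 2, and leaving Mucl2 and Prol1 out of shares, were chosen after seeing the data. Library totals of 15962399 to 19441239 counts put 3 counts at 0.154 to 0.188 CPM, which covers counting error only.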

Additional observations from a re-analysis of the deposited data

Results flagged for a closer look

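In 3 cases the change from control differed between day 7 and day 14 by the edgeR test of day 14 against day 7, which share the same controls. Dcpp1 differed by 0.55 on the log2 scale, Dcpp2 by 0.43 and the sum of the 3 Dcpp copies by 0.41, each higher at day 14. With the length and GC correction the 3 values were 0.37, 0.26 and 0.24, and none passed.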

How the results depend on the processing

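For 27 log2 fold changes, of the members tested and of the Dcpp sum in the 3 comparisons, 591 alternative values were compared. Of these, 527 kept their side of the threshold, and no called value changed sign. Of the 27 fold changes, 5 changed sign in at least 1 alternative. A2ml1 at day 14 against control, which was not called, ran from −0.086 to 0.23, and all its 22 alternatives are counted in the 527. Without a single library, genes called numbered 3106 to 5314 at day 7 against control (4692 with all), 13 to 1937 at day 14 against control (270) and 330 to 1415 at day 14 against day 7 (1011). The Dcpp sum ranged from −0.91 to −0.62, −0.51 to −0.21 and 0.39 to 0.44. Members called lower numbered 4 to 5 at day 7, 0 to 5 at day 14 against control (5 without control library 3), and 0 to 1 at day 14 against day 7, where 1 to 3 were higher.

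At an adjusted p of 0.01 the genes called were 2631, 11 and 264, and 1 member was higher at day 14 against day 7. At day 14 against control 1300 genes were called with no filter, 1042 by DESeq2, 1678 by limma-voom, 147 with the length and GC correction, 157 with only the 6 libraries compared and 1370 without control library 3 and day 14 library 2. Members lower there were 3, 4, 3, 0, 0 and 5, and the Dcpp sum passed at −0.32 with no filter, −0.35 by DESeq2, −0.37 by limma-voom and −0.52 without both libraries. At day 14 against day 7 limma-voom called 1874 genes and 1 member lower; 1 was lower also with only the 6 libraries and without both libraries. With the length and GC correction no member was higher in any comparison (0 against 1 at day 7 and 0 against 2 at day 14 against day 7), and the Dcpp sum at day 14 against day 7 was 0.24. The share of calls that were higher went from 51.6%, 64.1% and 56.5% to 33.2%, 40.8% and 62.0%. Without Mucl2 and Prol1 in members and totals the control share was 30.1%, and without mitochondrial genes the day 7 share was 27.2%. The cause of these differences was not tested.

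The replicate numbers did not pair the libraries: same-numbered libraries had correlations of their deviations from −0.12 to 0.022. With the replicate block 4319, 113 and 746 genes were called. With the replicate block and the length and GC correction 121 genes were called at day 14 against control, 0 members were higher at day 7 and at day 14 against day 7, and the Dcpp sum there was 0.24.

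With 3 libraries a group an exact permutation p cannot go below 0.1. Depth limits Bpifb2, for which fold changes without the count filter were −2.09, −1.47 and 0.62 (adjusted p = 0.202, 0.533 and 0.847).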
